A study of Mus musculus with 2 samples.

Results

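The genes described here encode the axon guidance proteins, a group of ligands and receptors named for steering growing nerve fibres and also used outside the nervous system. They were taken as every row of the deposited table whose symbol names a class 3 to 7 semaphorin, a plexin, a neuropilin, an ephrin, an Eph receptor, a Slit, a Robo, a netrin or an Unc5 receptor. This gave 69 rows of 38972, with 68 symbols, since Efna5 has a second row without reads. The RNA came from cells isolated as fibroblasts from mouse lungs, 1 library for each genotype. The control library came from Foxf1fl/fl mice given bleomycin, a drug that scars the lung. The other came from myoFoxf1 KO mice, which carry αSMA-Cre-ERT2 together with the same floxed Foxf1 alleles, so that tamoxifen deletes Foxf1, a forkhead transcription factor gene, in cells in which the smooth muscle actin promoter is active. Both groups were on the C57Bl/6 background, and the floxed line began as a 129/C57Bl/6 hybrid. The protocol gives bleomycin at 1 or 2 U/kg into the trachea weekly for 2 to 4 weeks and tamoxifen at 40 mg/kg to transgenic mice on days 2, 3 and 4. It does not say which dose and duration these cells had, whether the controls received tamoxifen, the age of the mice or how many animals made up a library. Only the sample labels of the control name bleomycin. The design text names it for the comparison as a whole.

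Semaphorins bind plexins, and most secreted class 3 semaphorins need a neuropilin as co-receptor. Ephrins are held on the cell surface and signal to Eph receptors of a touching cell, with signals passing into both cells. Slits act through Robo receptors, and netrins through Dcc, neogenin and Unc5 receptors. In the lung these families are known from the patterning of vessels and airways, from contacts between epithelial cells, and from the traffic of lymphocytes and macrophages.

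With 1 library per genotype there was no replicate error, and no p-value is given. The libraries held 16145959 (control) and 15122824 (knockout) reads assigned to genes. A gene was measured when it had at least 1 CPM (reads scaled to a common library size, with TMM factors) in either library and both libraries together gave at least 20 reads for it. A call needed a 2-fold or larger difference in CPM together with a 95% interval of the ratio (exact binomial, for counting error alone) that did not include 1. The targeted gene Foxf1 was lower in the knockout library, with 158 and 49 reads (8.77 and 3.61 CPM) and a log2 ratio of -1.27 (-1.77 to -0.81). After the correction for GC content and length described below Foxf1 stood at -0.84 and was not called. The fibroblast markers had a median of -1.12 before that correction and -1.28 after it. All 12 fibroblast markers examined were measured, so RNA of the labelled cell type was present. All 12 macrophage, all 12 endothelial and all 12 epithelial markers were measured too, so this does not single out fibroblasts. In CPM summed over each list, however, 12 macrophage markers came to 16302 (control) and 35210 (knockout), against 1582 and 734 for the fibroblast markers. The 12 epithelial markers stood at 14525 and 4498. Single genes carried much of these sums, with Lyz2 at 11221 and 24231, Scgb1a1 at 7161 and 1887 and Sftpc at 5413 and 2071. The sums are therefore not proportions of cells. Fewer cells of a type and less RNA per cell cannot be told apart in such bulk samples.

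Most guidance genes had less RNA in the knockout library, and the 2 called higher were semaphorin receptors. Of the 55 measured members, 43 had a ratio below 0 on the log2 scale and 12 above it. There were 20 called lower and 2 called higher. Among all 14455 measured genes 14.2% were called lower and 9.37% higher. The median log2 ratio of the members was -0.61, beside 0.01 over all measured genes. The ephrins, the Eph receptors and part of the class 3 semaphorins held most of the lower calls, and the higher calls were the neuropilin Nrp2 and the plexin Plxnc1. The members were not spread evenly over the ranking of all measured genes by ratio, with 26 among the lowest 20% and 4 among the highest 20%.

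**Figure D1:**
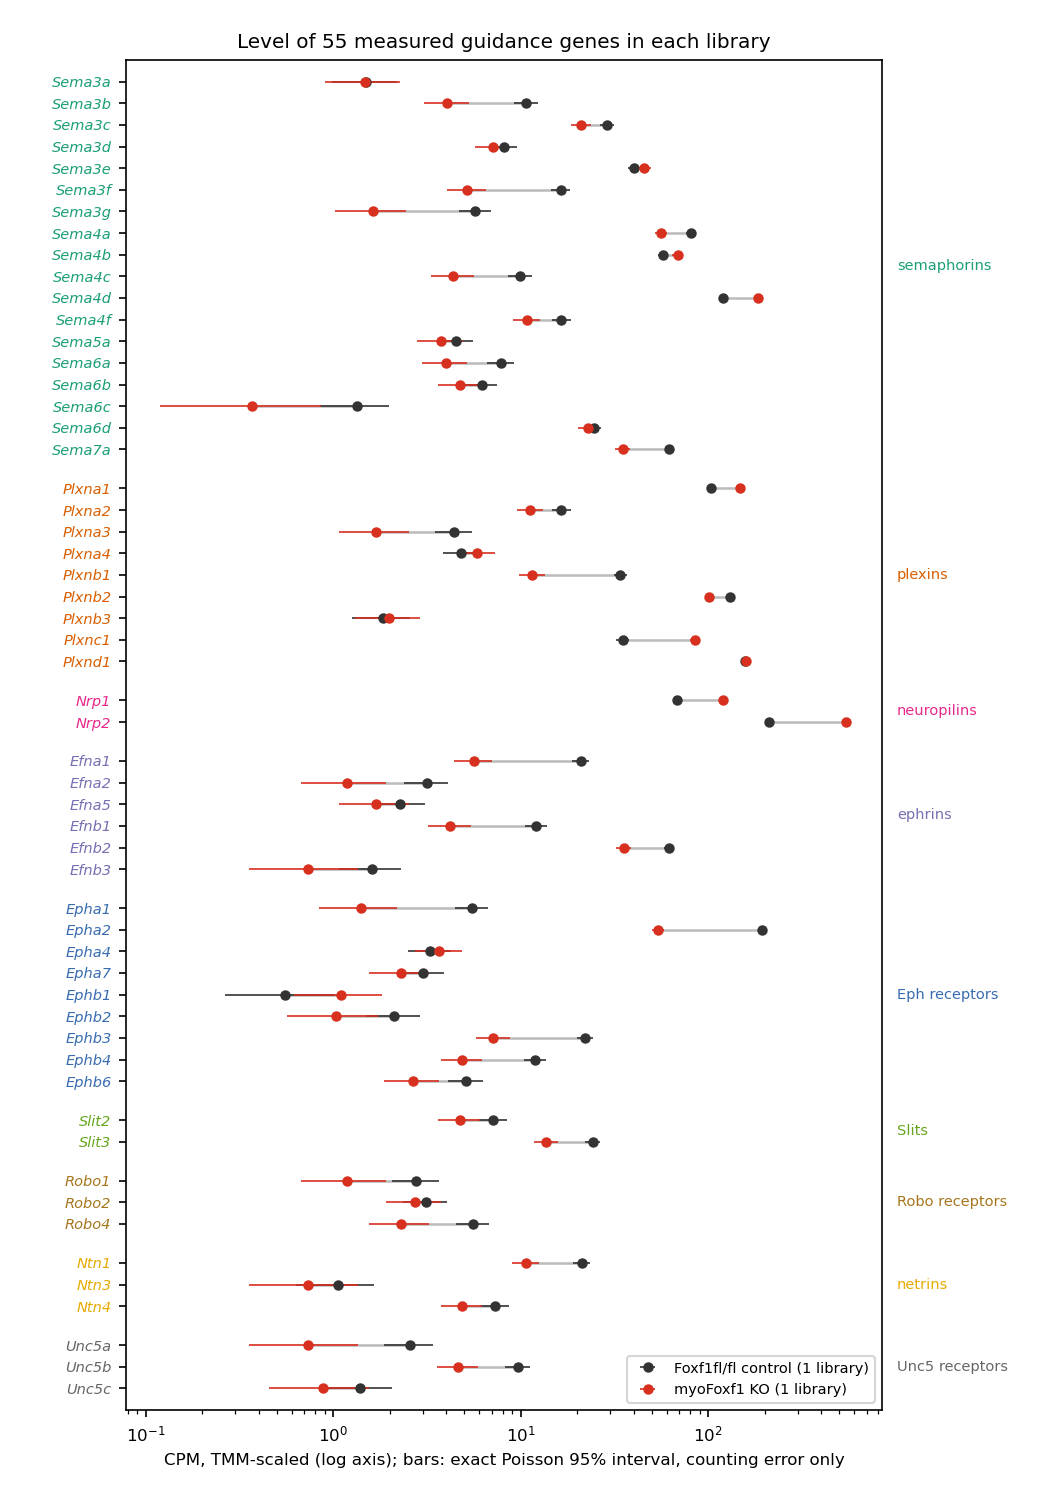
CPM of each measured guidance gene (log axis) in the control library (black) and the knockout library (red), with exact Poisson 95% intervals that cover counting error only, by family. The control value of Epha2 was 194 CPM and its knockout value 54.0 CPM, while Nrp2 stood at 211 and 541 CPM.

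The promoters of the 4 called members with the highest FPKM in either library are shown because these genes differed in opposite directions and Foxf1, the gene deleted, encodes a DNA-binding factor. They are RefSeq windows on GRCm38.p6 from 250 bases before to 50 after the annotated start, 5′ to 3′ on the strand of the gene, with each CG in capitals. The windows are Epha2 at chr4:141300971-141301270 (plus strand), Efna1 at chr3:89280902-89281201 (minus strand, the outer of 2 windows), Nrp2 at chr1:62703067-62703366 (plus strand) and Plxnc1 at chr10:94944796-94945095 (minus strand). Epha2 and Efna1 were called lower, and Nrp2 and Plxnc1 higher.
Epha2: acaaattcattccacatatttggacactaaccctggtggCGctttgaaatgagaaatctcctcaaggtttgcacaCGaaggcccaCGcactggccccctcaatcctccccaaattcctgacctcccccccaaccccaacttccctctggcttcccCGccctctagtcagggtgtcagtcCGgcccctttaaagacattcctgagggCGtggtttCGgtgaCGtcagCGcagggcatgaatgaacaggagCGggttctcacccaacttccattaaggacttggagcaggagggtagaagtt
Efna1: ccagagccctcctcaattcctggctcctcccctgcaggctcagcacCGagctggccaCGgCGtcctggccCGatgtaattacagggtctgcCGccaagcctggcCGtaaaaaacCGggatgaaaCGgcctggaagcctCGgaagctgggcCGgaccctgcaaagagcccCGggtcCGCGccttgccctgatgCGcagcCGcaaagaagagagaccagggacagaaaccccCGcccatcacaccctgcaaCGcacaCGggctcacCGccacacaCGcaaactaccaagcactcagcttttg
Nrp2: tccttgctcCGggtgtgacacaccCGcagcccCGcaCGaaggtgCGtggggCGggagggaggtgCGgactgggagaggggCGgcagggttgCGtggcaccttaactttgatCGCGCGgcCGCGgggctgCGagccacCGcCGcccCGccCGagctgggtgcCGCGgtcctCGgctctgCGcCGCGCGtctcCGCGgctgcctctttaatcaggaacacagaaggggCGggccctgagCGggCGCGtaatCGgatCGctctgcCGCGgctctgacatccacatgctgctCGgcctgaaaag
Plxnc1: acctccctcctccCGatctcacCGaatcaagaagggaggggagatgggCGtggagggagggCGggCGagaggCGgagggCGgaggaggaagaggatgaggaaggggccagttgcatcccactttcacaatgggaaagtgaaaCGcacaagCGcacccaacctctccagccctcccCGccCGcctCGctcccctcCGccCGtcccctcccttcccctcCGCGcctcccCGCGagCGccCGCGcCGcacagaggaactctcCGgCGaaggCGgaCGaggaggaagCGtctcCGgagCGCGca

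These windows held 10 (Epha2), 20 (Efna1), 37 (Nrp2) and 30 (Plxnc1) CG pairs. A RefSeq window was found for 59 of the 68 symbols, 75 windows in all, with a median of 19 CG pairs, the same median as the 13276 windows of measured genes. The letters TAAACA, the core that forkhead factors read, were searched on both strands. They occurred in 2 of the 75 windows (2.67%), and in none of the 20 windows of members called lower or the 2 of members called higher. Those 20 windows belong to 17 members, since Efnb3, Sema3b and Sema3f, also called lower, had no window and were not searched. The share was 13.4% of all 32851 promoter windows and 8.99% of those of measured genes. Guidance promoters were rich in G and C, and among windows of at least 60% GC the share was 3.89% for measured genes and 1 of 51 for guidance genes. No match says only that these letters are not in this window.

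Ephrins were lower as a family, with all 6 measured members below 0, 4 called lower and a median log2 ratio of -1.25. After the correction for GC content and length described below all 6 were still below 0, with a median of -0.83. Of the 4 lower calls, Efna1 alone was kept. Efna1, a GPI-anchored ephrin of endothelium and epithelium, had 377 reads (20.9 CPM) in the control but 76 (5.61 CPM) in the knockout, and its log2 ratio was -1.89 (-2.28 to -1.54). Efnb1, a transmembrane ephrin encoded on the X chromosome, had 218 and 57 reads (12.1 and 4.20 CPM), a log2 ratio of -1.52 (-1.97 to -1.10). The control library was thus the higher for both kinds of ephrin, the lipid-anchored A class and the membrane-spanning B class. Efna2 (57 and 16 reads, log2 ratio -1.40) was also called lower. So was Efnb3 (29 and 10 reads, -1.09, interval -2.33 to -0.05), on few reads. Efnb2, the ephrin of arterial endothelium, was the most abundant of the family per length and had 1114 and 480 reads (61.9 and 35.4 CPM), short of a call at a log2 ratio of -0.80 (-0.96 to -0.65). Efna5 had 41 and 23 reads and was not called. Efna3 (18 and 6 reads) and Efna4 (10 and 3 reads), which lie next to Efna1 on chromosome 3 with gaps of 32.8 and 10.4 kb, were too low to be measured.

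Of 9 measured Eph receptors, 5 were called lower and none higher, with a median log2 ratio of -1.01. Epha2, an Eph receptor of epithelial cells on chromosome 4 (141301240 to 141329384 in the deposited coordinates), was represented by 3499 control reads (194 CPM) and 732 knockout reads (54.0 CPM). Its log2 ratio was -1.85 (-1.96 to -1.73), a level 3.60-fold lower. In FPKM (reads scaled by gene length and library total, by the authors), Epha2 was the most abundant of all guidance genes in the control at 46.4, and stood at rank 8 in the knockout at 10.4. It made up 80.0% of the summed FPKM of the Eph receptors in the control and 71.7% in the knockout. Ephb3, an Eph receptor of epithelia that binds B ephrins, had 397 and 97 reads (22.0 and 7.16 CPM), a log2 ratio of -1.62 (-1.96 to -1.30). Ephb4, the receptor of venous endothelium and partner of Efnb2, had 215 and 66 reads, a log2 ratio of -1.29 (-1.71 to -0.89). For these B receptors, as for the called B ephrins, the knockout library was the lower one. Epha1, with 99 and 19 reads, was at -1.95 (-2.76 to -1.25), but its gene overlaps Zyx on the opposite strand by 1660 bases. Zyx had 2813 and 1568 reads, and a kit that does not mark strand cannot separate the reads of such a stretch. Ephb2 (38 and 14 reads, log2 ratio -1.01, interval -2.03 to -0.11) was just inside the 2-fold threshold, and Ephb6, a receptor without kinase activity (92 and 36 reads, -0.94), was just outside it. Epha4 (59 and 50 reads, 0.17), Epha7 (54 and 31 reads, -0.39) and Ephb1 (10 and 15 reads, 0.96, interval -0.26 to 2.31) were not called. Epha3 (14 and 11 reads) and Epha8 (4 and 2 reads) were not measured, and Epha5, Epha6 and Epha10 had no reads in either library. A count of 0 allows up to 3 reads, which is 0.167 CPM for the control library and 0.221 CPM for the knockout library.

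Most semaphorins had less RNA in the knockout library, with 15 of 18 measured members below 0 and 3 above it. Of the 18, 5 were called lower and none higher, with a median log2 ratio of -0.49. The lower calls in class 3, the secreted semaphorins, were Sema3b, Sema3f and Sema3g, while Sema3a, Sema3c, Sema3d and Sema3e were not called. Sema3f, a ligand that binds Nrp2, was at 294 control reads (16.3 CPM) and 70 knockout reads (5.16 CPM), with a log2 ratio of -1.65 (-2.06 to -1.28). Sema3b, its neighbour 72.3 kb away on chromosome 9, had 193 and 55 reads (10.7 and 4.06 CPM), a log2 ratio of -1.39 (-1.86 to -0.96). Sema3g, a semaphorin of endothelium, had 103 and 22 reads (5.72 and 1.62 CPM), a log2 ratio of -1.80 (-2.55 to -1.14). The 4 class 3 genes on chromosome 5 had log2 ratios from -0.46 (Sema3c, 521 and 285 reads) to 0.18 (Sema3e, 726 and 618 reads, or -0.14 with total reads alone). This difference between the class 3 genes did not outlast the correction for GC content and length described below, after which Sema3c (-1.09) and Sema3d (-1.04) were called lower and Sema3f (-0.96) and Sema3b (-0.87) were not. Sema3d had 146 and 96 reads and Sema3a 27 and 20.

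In class 4, the membrane semaphorins known from immune cells, Sema4c (179 and 59 reads) was the one called, its log2 ratio being -1.19 (-1.64 to -0.76). Sema4d, the semaphorin of T cells and other leukocytes also called CD100, was at 2156 control reads (120 CPM) and 2487 knockout reads (183 CPM). Its log2 ratio of 0.62 (0.53 to 0.70) was short of a call. In FPKM it made up 19.9% of all semaphorins in the control and 34.4% in the knockout, where it was the most abundant of them. Sema4b had 1031 and 932 reads (log2 ratio 0.26, but -0.05 with libraries scaled by total reads alone), Sema4a 1451 and 761 (-0.52) and Sema4f 297 and 146 (-0.61). Sema7a, a GPI-anchored semaphorin known in mice from lung fibrosis driven by TGF-beta, was the most abundant semaphorin per length in the control. It had 1118 and 474 reads (62.1 and 35.0 CPM), a log2 ratio of -0.83 (-0.99 to -0.67), and was not called. Of class 6, Sema6c was called lower on 24 and 5 reads (-1.77, interval -3.60 to -0.43). Sema6a (141 and 54 reads, -0.97), Sema6b (112 and 64 reads, -0.40) and Sema6d (441 and 309 reads, -0.10) were not called, and neither was Sema5a (81 and 51 reads, -0.26). Sema4g (14 and 11 reads) and Sema5b (2 and 1 reads) were not measured.

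The receptors of semaphorins differed in both directions, and the neuropilins were the one family without a ratio below 0. Nrp2, a co-receptor for class 3 semaphorins and for VEGF-C, on chromosome 1 (62703285 to 62818695), was at 3802 control reads (211 CPM) and 7337 knockout reads (541 CPM). Its log2 ratio was 1.36 (1.30 to 1.42), a level 2.56-fold higher. Nrp2 was at rank 6 of the guidance genes by FPKM in the control (19.9) and at rank 1 in the knockout (41.0). Nrp1, the co-receptor for Sema3a and VEGF-A, had 1229 and 1626 reads (68.2 and 120 CPM), a log2 ratio of 0.81 (0.71 to 0.92) that was short of a call. Both neuropilins were thus more abundant in the knockout library, and under scaling by total reads alone Nrp2 was still called, at 1.04, and Nrp1 stood at 0.50.

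Of 9 plexins, all measured, 2 were called lower and 1 higher, and their median log2 ratio was 0.03. Plxnc1, the receptor of Sema7a and a plexin of myeloid cells, was at 632 control reads (35.1 CPM) and 1148 knockout reads (84.7 CPM), with a log2 ratio of 1.27 (1.13 to 1.41). With total reads alone it stood at 0.96 and was not called. Plxnb1, a receptor of Sema4d found on epithelium, had 611 and 156 reads (33.9 and 11.5 CPM), a log2 ratio of -1.56 (-1.82 to -1.30). Plxna3, with 79 and 23 reads, was at -1.35 (-2.11 to -0.68). The 3 plexins with the highest FPKM in the control had smaller differences. Plxnd1, the endothelial receptor of Sema3e, had 2829 and 2167 reads (157 and 160 CPM, log2 ratio 0.03, or -0.29 with total reads alone). Plxnb2 had 2365 and 1372 reads (131 and 101 CPM, -0.38), and Plxna1 had 1862 and 2011 reads (103 and 148 CPM, 0.52). Plxna2 (297 and 152 reads, -0.56), Plxna4 (87 and 79 reads, 0.27) and Plxnb3 (33 and 27 reads, 0.12) were not called.

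Slit, Robo, netrin and Unc5 genes had low levels, with a summed FPKM between 2.16 and 6.41 for each of the 4 families in the control, and all 11 measured members had a ratio below 0. Slit3, a secreted ligand, made up 86.4% of the summed FPKM of the Slits in the control and 82.7% in the knockout. It had 436 reads (24.2 CPM) and 185 reads (13.6 CPM), a log2 ratio of -0.83 (-1.08 to -0.58), and Slit2 had 128 and 64 reads (-0.59, interval -1.05 to -0.15). Neither was called, and Slit1 (11 and 10 reads) was not measured. Of the receptors, Robo4, the Robo of endothelium, had 100 and 31 reads (5.55 and 2.29 CPM), a log2 ratio of -1.27 (-1.91 to -0.69). Robo1, the broadly expressed Slit receptor, had 50 and 16 reads, a log2 ratio of -1.21 (-2.15 to -0.40). Both were called lower, whereas Robo2 (56 and 37 reads, -0.19) was not, and Robo3, with 4 control reads and 0 knockout reads, was not measured.

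Ntn1, the gene of netrin-1, was at 381 control reads (21.2 CPM) and 144 knockout reads (10.6 CPM). Its log2 ratio of -0.99 (-1.28 to -0.71) fell just short of the 2-fold threshold. Ntn4, a netrin of basement membranes, had 131 and 66 reads (-0.58), of which a part may belong to Gm8580 (100 and 24 reads), a gene on the opposite strand that shares 464 bases. Ntn3 had 19 and 10 reads and overlaps Tbc1d24 (207 and 296 reads) on the same strand, and Ntn5 (9 and 3 reads) was not measured. Unc5b, the netrin receptor of vessels, had 174 and 63 reads (9.66 and 4.65 CPM), a log2 ratio of -1.05 (-1.50 to -0.63). Unc5a, with 46 and 10 reads, was at -1.75 (-2.94 to -0.79). Both were called lower, while Unc5c (25 and 12 reads, -0.63) was not, and Unc5d had no reads.

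**Figure D2:**
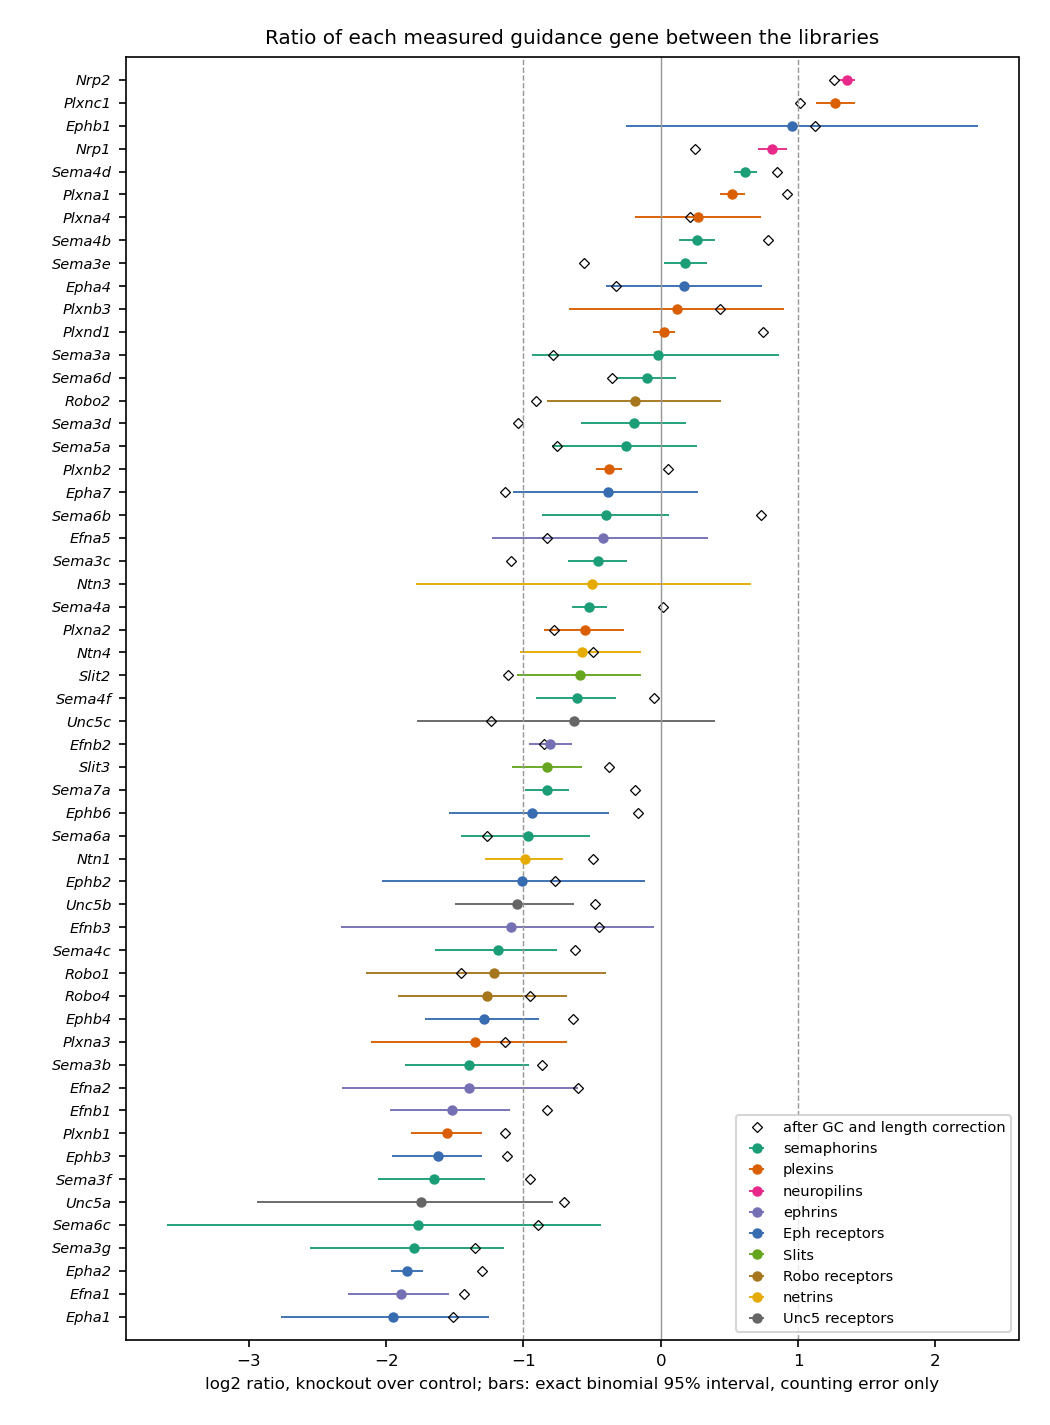
Log2 ratio of knockout over control for the 55 measured guidance genes, ordered by ratio and coloured by family, with exact binomial 95% intervals that cover counting error only. Open diamonds are the ratios after removal of trends on GC content and transcript length, and dashed lines mark 2-fold. Epha1, Efna1 and Epha2 are lowest (-1.95, -1.89 and -1.85), and Nrp2 and Plxnc1 highest (1.36 and 1.27).

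The level of a ligand relative to its receptor within a library does not depend on how the libraries are scaled. It was computed in FPKM for 14 known pairs, which were listed with the ratios in view. In 3 pairs it moved more than 4-fold. Sema3f stood at 0.270 of the level of Nrp2 in the control and at 0.0333 in the knockout, a log2 change of -3.02 (95% interval from counting error -3.40 to -2.64). The level of Sema7a was 4.21 times that of Plxnc1 in the control and 0.982 times in the knockout (-2.10, interval -2.31 to -1.89). Sema4d stood at 4.90 times Plxnb1 in the control and 22.1 times in the knockout (2.18, interval 1.91 to 2.44). Sema3f and Sema7a were thus scarcer per receptor in the knockout library, and Sema4d more plentiful per Plxnb1. Sema4d also went from 1.01 to 2.00 times Plxnb2 (0.99, interval 0.86 to 1.12).

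The balance differed less in other pairs before any correction. The level of Efna1 was 0.275 (control) and 0.265 (knockout) of that of Epha2, and the interval of the log2 change (-0.05) ran from -0.43 to 0.32. Efnb1 to Ephb3 changed by 0.10 (-0.43 to 0.63), Ntn1 to Unc5b by 0.06 (-0.44 to 0.56), and Slit2 to Robo1 by 0.64 (-0.28 to 1.56). Efnb2 to Ephb4 went from 5.56 to 7.80, a change of 0.49 (0.06 to 0.92), and Ntn1 to Neo1 from 1.18 to 0.787, a change of -0.58 (-0.95 to -0.21). After the correction for GC content and length described below, the changes were -2.22 for Sema3f to Nrp2, -1.20 for Sema7a to Plxnc1 and 1.98 for Sema4d to Plxnb1. Sema3e to Plxnd1, at 0.15 (-0.02 to 0.33) before the correction, was at -1.30 after it. Sema6d to Plxna1 went from -0.62 (-0.85 to -0.40) to -1.27, and Sema3a to Nrp1 from -0.84 (-1.68 to 0.004) to -1.03. Sema4a to Plxnb2 was at -0.15 (-0.30 to 0.01) before and -0.03 after. The corrected change of Sema7a to Plxnc1 was thus no larger than those of Sema3e to Plxnd1 and Sema6d to Plxna1.

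**Figure D3:**
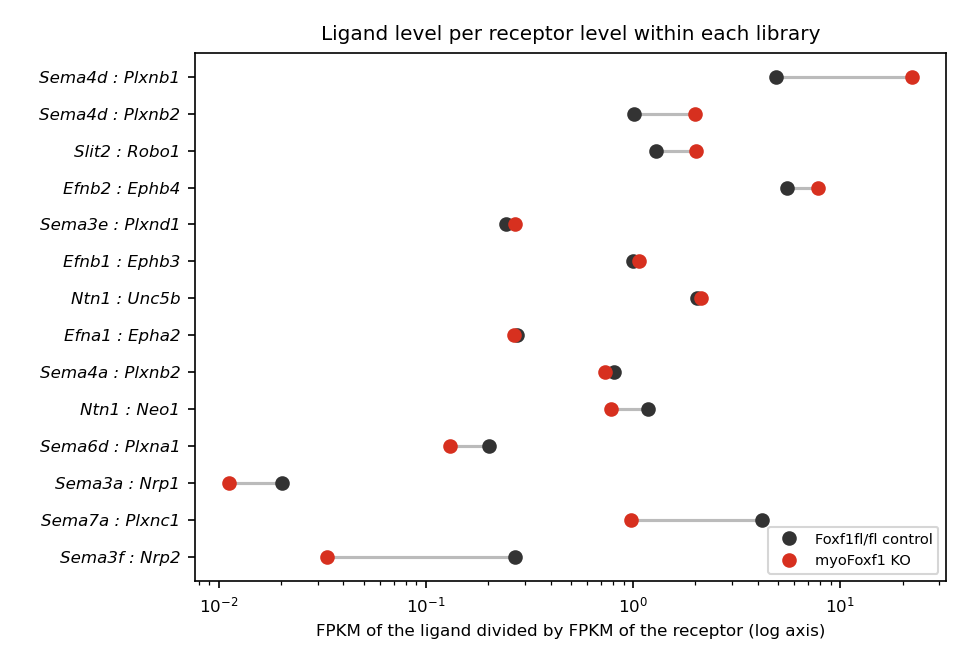
FPKM of a ligand divided by FPKM of its receptor (log axis) in the control library (black) and the knockout library (red) for 14 pairs, ordered by the change. Sema4d to Plxnb1 lies farthest to the right in the knockout at 22.1, and Sema3f to Nrp2 moved from 0.270 to 0.0333.

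Ratios in these libraries followed the GC content of the transcripts, and guidance transcripts are rich in G and C. The median log2 ratio of all genes went from 0.61 among the 20% of lowest GC content to -0.63 among the 20% of highest. The median GC content was 55.3% over the measured members and 49.7% over all measured genes. The 20 members called lower lay between 49.5% and 62.7%, with a median of 57.1%, and Nrp2 and Plxnc1 at 51.1% and 49.3%. Among the 20% of genes with the highest GC content (55.4% to 73.7%) 31.6% were called lower, and 14 of the 26 members there were. Among the next 20%, 17.7% of all genes and 5 of 8 members were called lower. Among the 20% with the lowest GC content, 3.25% of all genes and none of 7 members were, and 23.2% of all genes were called higher.

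When lowess trends of the ratio on GC content and transcript length were removed, 14 of 54 members were called lower and 2 higher, beside 10.9% and 5.36% of all genes. The median of the members was then -0.67, beside 0.04 over all genes. Of the 20 members called lower 8 kept the call, namely Epha1 (-1.52), Efna1 (-1.43), Robo1 (-1.45), Sema3g (-1.36), Epha2 (-1.31), Plxna3 (-1.13), Plxnb1 (-1.13) and Ephb3 (-1.12). Nrp2 (1.26) and Plxnc1 (1.01) stayed higher. Another 12 lost the call, among them Sema3f (-0.96), Robo4 (-0.95), Sema3b (-0.87), Efnb1 (-0.83), Unc5a (-0.71), Ephb4 (-0.64) and Unc5b (-0.48). In turn 6 members of low GC content became called lower, which were Sema6a (-1.27), Unc5c (-1.24), Epha7 (-1.14), Slit2 (-1.11), Sema3c (-1.09) and Sema3d (-1.04). Nrp1 went to 0.25 and Plxnd1 to 0.74.

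**Figure D4:**
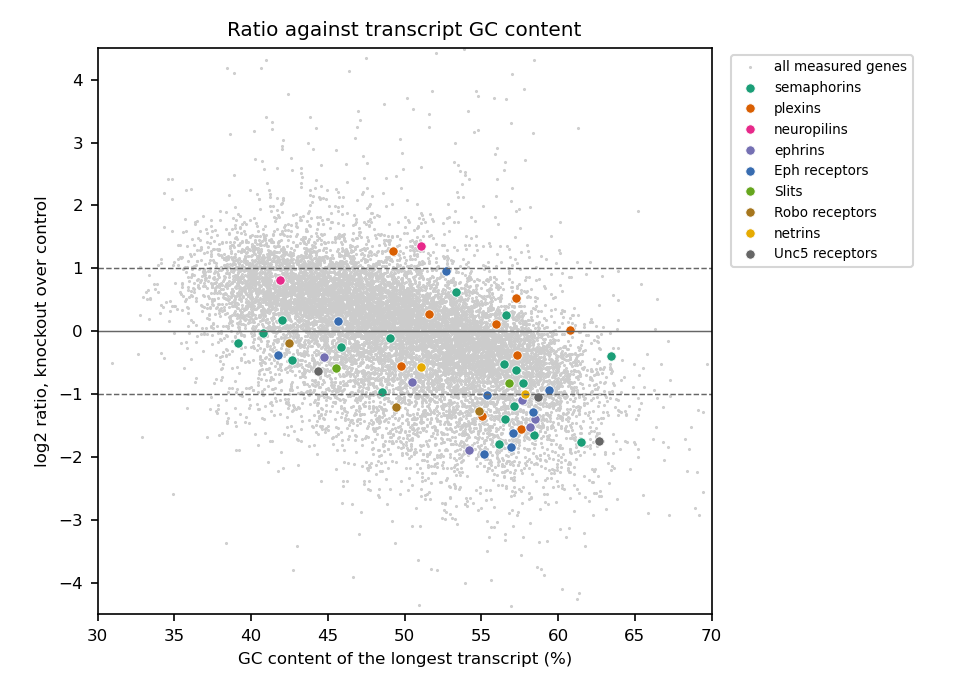
Log2 ratio of knockout over control against the GC content of the longest transcript for all measured genes (grey) and the guidance genes by family (coloured), with dashed lines at 2-fold. Ratios fall with GC content over all genes, and 55 genes lie outside the axes. The members called lower lie between 49.5% and 62.7% GC.

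Markers of the cell types that use these genes differed between the libraries as well. Of 12 endothelial markers 6 were called lower, with a median log2 ratio of -1.02, from -2.21 (Plvap) to -0.24 (Kdr), and their summed level went from 304 to 168 CPM. This stands beside the lower calls of Robo4, Sema3g, Ephb4 and Unc5b. Efnb2 (-0.80) and Plxnd1 (0.03), also described above as endothelial, were not called. Of 12 epithelial markers 10 passed the rule in the lower direction, and their median was -2.08, from -4.37 (Krt5) to -0.48 (Cldn18), which stands beside Epha2, Ephb3 and Plxnb1. Of 12 macrophage markers 6 were called higher and none lower, with a median of 1.00, from -0.36 (Marco) to 1.51 (Itgam), beside Nrp2 and Plxnc1. Fibroblast markers had a median of -1.12, with 8 of 12 lower and Fap higher. All 5 measured mesothelial markers of 6 were lower (median -1.67, summed level 688 and 218 CPM). Krt19 alone carried 487 and 170 CPM of the mesothelial sums. No marker of these 5 lists was at 0 in either library, and their part in the results was not tested. Relative to the median of the fibroblast markers, a comparison added with the data in view, no guidance gene was called lower and 14 of 55 were called higher, and the median of the members turned to 0.51. Under the same reference 56.1% of all measured genes were called higher and 1.83% lower, and their median was 1.13. This reference adds the same amount to every ratio. The distance between the median of the members and that of all genes therefore cannot change, and the comparison says nothing further about it.

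Markers of other cells differed in both directions. Of 8 pericyte and smooth muscle markers 2 were lower and 2 higher (median -0.42, summed level 89.4 and 69.4 CPM). Of 8 Schwann cell markers 5 were measured and 3 called higher (median 1.83, summed level 182 and 236 CPM), with Gfap at 0 in both libraries and Sox10 at 0 in the control. T cell markers had 1 higher call of 6 (median 0.09, summed level 46.5 and 49.3 CPM), and Sema4d, a T cell semaphorin, was not called. B cell markers had 3 lower calls of 4 (median -1.56, 410 and 134 CPM), and neutrophil markers 3 higher and 1 lower of 6 (median 1.17, 107 and 244 CPM). No marker of the T cell, B cell, neutrophil or pericyte lists was at 0, and the part of these cells in the results was not tested.

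Other genes of guidance signalling were taken as a list of 56 co-receptors, further ligands and proteins that carry the signal inside the cell. Of these, 48 were measured, 7 were called lower and 5 higher, and the median log2 ratio was -0.13. These are shares of 14.6% and 10.4%, near the 14.2% and 9.37% of all measured genes, so the counts say nothing particular about the list. Among surface proteins, Rgma, a ligand of neogenin, had 78 and 9 reads, a log2 ratio of -2.65 (-3.89 to -1.71). Cd72, a B cell receptor for Sema4d, had 747 and 278 reads (-1.02, interval -1.22 to -0.82). Flrt3, a membrane protein that binds Unc5 and Robo receptors, had 3015 and 6908 reads (167 and 510 CPM), a log2 ratio of 1.61 (1.54 to 1.67). The netrin receptors outside the Unc5 family were Neo1, the gene of neogenin, which was not called (381 and 215 reads, -0.41), and Dcc, which had no reads.

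Of the intracellular genes, the exchange factor Ngef, which acts below EphA receptors, had 151 and 29 reads (-1.95, interval -2.60 to -1.39). The small GTPase Rnd1, which binds plexins, had 441 and 132 reads (-1.33, interval -1.62 to -1.05). Enah, an actin regulator below Robo, had 530 and 187 reads (-1.09), and Farp1 (298 and 107 reads, -1.06) and the endothelial exchange factor Arhgef15 (49 and 15 reads, -1.27) were also called lower. Higher calls fell on the exchange factor Vav3 (284 and 619 reads, 1.53), on Sos1 (640 and 1261 reads, 1.39), on Sdcbp, the gene of syntenin, which binds B ephrins (12921 and 22764 reads, 1.23), and on Adam10 (2277 and 3848 reads, 1.17). Adam10 encodes a protease that sheds ephrins, including ephrin-B2 in mouse lung fibroblasts. After the correction for GC content and length 5 of the 48 measured were lower and 6 higher, beside 10.9% and 5.36% of all genes. Rgma (-1.75), Enah (-1.71), Ngef (-1.50), Rnd1 (-1.02), Vav3 (1.14) and Flrt3 (1.04) kept their calls. Sdcbp (0.69), Sos1 (0.59) and Adam10 (0.56) lost their higher calls, and Arhgef15 (-0.83), Farp1 (-0.69) and Cd72 (-0.43) their lower ones. Crmp1 (1.22, on 12 and 15 reads), Evl (1.06), Trio (1.03) and Plxdc1 (1.01) became called higher, and Kalrn (-1.09) lower.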

How the data were processed

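RNA-seq of 1 control and 1 knockout library was analysed. Per the labels' protocols the Nextera XT kit was used, which does not mark strand. The authors deposited estimated counts and FPKM of each gene. TopHat, Cufflinks, GRCm38 and mm10 appear in the submitters' processing notes, with no roles or versions. Estimated counts, not whole for 76.1% (control) and 73.3% (knockout) of genes with reads, were rounded. The deposited FPKM gave the same ratios as the estimated counts to within 1% after a constant for the library, so it was used only to compare levels between genes and in alternatives.

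Counts were scaled with TMM (edgeR 4.0.16, R 4.3.3). Ratios used a prior count of 0.5 and Clopper-Pearson 95% intervals (scipy 1.17.1). Without molecular identifiers, reads are not independent molecules, and intervals and limits cover counting error only. Intervals of ligand to receptor changes were normal approximations from the 4 counts. GC content and length came from the longest GENCODE M21 transcript (statsmodels 0.14.6 lowess, span 0.3, first on GC, then on log2 length), found for 98.9% of measured genes and 54 of 55 members. Calculations were tested on simulated data. The members and lists were chosen with earlier results of these data known, and Adgre1 was matched by its identifier. Named genes were the called members and listed genes, and the most abundant uncalled members of each family with their partners. Of the markers, the ends of the endothelial, epithelial and macrophage lists were named, with some other single markers. All other members are also given, beyond that rule.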

Additional observations from a re-analysis of the deposited data

How the results depend on the processing

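No paired analysis was possible because each genotype had 1 library. The 20 lower and 2 higher calls and the median of -0.61 were set against 13 alternatives, and no called member changed sign except under the fibroblast reference. Scaling by total reads lowered the median of all genes to -0.32 and gave 27 lower and 1 higher call, beside 22.1% and 4.05% of all genes. DESeq2 1.42.0 size factors gave 20 and 2, beside 14.1% and 9.51% of all genes. A minimum of 5 or 10 CPM left 13 or 8 lower calls of 38 and 26 members measured, beside 11.4% and 9.41% of all genes. Log2 of FPKM plus 1 gave 10 lower and 1 higher call of 36 members, beside 12.3% and 2.42% of all genes. FPKM plus 0.1 gave 19 lower and 1 higher call of 36, beside 20.7% and 3.88%, and a median of -1.11, beside -0.29 for all genes. The 1.5-fold rule gave 28 lower and 4 higher calls (23.5% and 22.1% of all genes). The 4-fold rule gave 0 and 0 (2.746% and 1.204%), and an interval beyond 2-fold 8 and 2 (6.45% and 4.94%). Relative to the fibroblast markers there were 0 lower and 14 higher calls and a median of 0.51, beside 1.83% lower, 56.1% higher and 1.13 for all genes. By its construction this adds 1.12 to every ratio, so the medians of semaphorins (0.63), Eph receptors (0.12), Slits (0.42), netrins (0.55) and Unc5 receptors (0.074) reversed, as did Ephb2 (0.12), Unc5b (0.074) and Efnb3 (0.031). Nrp2 and the 6 genes Epha1, Epha2, Ephb3, Efna1, Plxnb1 and Sema3g kept their calls in 5 of these alternatives. The 5 were total reads, DESeq2 factors, FPKM plus 0.1, a prior count of 2 and the GC and length correction. With FPKM plus 1, Sema3g (FPKM 1.41 in the control and 0.321 in the knockout) was not called. The share of all genes that kept a call in all 5 was not computed. Leaving out a replicate was not possible, and the lowest counts limit Sema6c, Efnb3, Ephb2 and Unc5a.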
